A study of Caenorhabditis elegans with 12 samples.

Results

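The 10 genes described here encode scaffold and assembly proteins of P granules, the RNA and protein condensates of Caenorhabditis elegans germ cells. They were chosen by name, as pgl-1, pgl-2, pgl-3, deps-1, mip-1, mip-2, meg-1, meg-2, meg-3 and meg-4, and all 10 have a row among the 46904 gene IDs of the deposited count table. All 10 also passed the filter on low counts, which kept 16526 genes. The series sets worms labelled glh1 beside worms labelled wt, in total and in polysomal RNA; the gene glh-1 encodes a Vasa-family RNA helicase that sits in P granules. The 4 groups of 3 libraries each were polysomal RNA of the genotype labelled glh1, total RNA of glh1, polysomal RNA of the genotype labelled wt and total RNA of wt. Each genotype was grown as 3 liquid cultures at 20 °C for about 40 h after synchronised hatching, to mostly young adults. Each culture's lysate was split into a portion for total RNA and a portion for polysomal RNA, which was the polysome fraction of a 10 to 50% sucrose gradient. All groups share the medium and food, and the lysis buffer held cycloheximide, which stalls ribosomes on mRNA. Neither the allele nor the full strain genotype is given in the sources used here, and each genotype is 1 strain grown in bulk.

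P granules sit on the outer face of germ cell nuclei, above the nuclear pores, and receive newly exported mRNA. PGL proteins bind one another and form the core of the granule, while DEPS-1 and the LOTUS-domain proteins MIP-1 and MIP-2 help PGL proteins and GLH-1 to gather there. The MEG proteins are disordered proteins supplied by the mother, and in the early embryo they steer granules, with the mRNAs inside them, into the cells that found the germline. The mRNAs of all these proteins are made mainly in the adult germline, so a whole-worm library measures them together with the amount of germline in the sample. A lower value in such a bulk library cannot distinguish fewer germ cells from less mRNA per germ cell.

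Libraries held 34520267 to 49672537 estimated counts in total, and the members held 127 to 18311 counts in a single library. Libraries differed in ways the groups explain only in part. In wt, annotated rRNA genes took 4.89, 7.34 and 9.51% of the polysomal libraries and 40.35, 39.03 and 28.85% of the total RNA libraries, with no overlap. In glh1 they took 3.07, 45.7 and 16.4% of the polysomal and 23.2, 27.9 and 13.5% of the total RNA libraries. Library 3 of polysomal glh1 RNA scored -136 on principal component 1, where the other polysomal libraries lay between -55.7 and -36.5. Both libraries of wt culture 1 lay within the range of the glh1 libraries on component 2. The mRNA of glh-1 itself was not low in glh1, where it measured 880, 906 and 1495 CPM in polysomal libraries, against 293, 388 and 384 CPM in polysomal wt libraries. With the allele not given, this level does not check the label, and glh1 and wt are used as the labels' names only. The tissue label says whole embryo, but 12 of 12 oocyte markers were measured at a summed 3172 to 5872 CPM in total RNA, the 5 muscle markers reached 2206 CPM or more, and only 7 of 12 zygotic embryo markers passed the filter, at a summed 10.4 to 11.9 CPM.

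The members lie on 5 chromosomes of the WBcel235 assembly, in coordinates of the Ensembl annotation, and all are protein-coding. The gene pgl-1 (WBGene00003992) lies at chrIV:6974441-6977318 on the minus strand, pgl-2 (WBGene00003993) at chrIII:8670543-8675435 on the minus strand and pgl-3 (WBGene00003994) at chrV:4755979-4758587 on the plus strand. On the plus strand lie deps-1 (WBGene00022034) at chrI:506473-509056 and mip-1 (WBGene00008005) at chrIII:4793086-4795423. On the minus strand lies mip-2 (WBGene00010281) at chrV:13669353-13671958. All 4 meg genes are on the X chromosome. The genes meg-1 (WBGene00010492, chrX:13927036-13929634) and meg-2 (WBGene00010493, chrX:13922643-13926129) are neighbours on the minus strand with 906 bases between them. The genes meg-3 (WBGene00001569, chrX:1986469-1989607, minus strand) and meg-4 (WBGene00016485, chrX:1682954-1686419, plus strand) lie 300049 bases apart. The exons of the members cover 1834 bases (mip-1) to 2910 bases (meg-2). Of these exons, 139 bases of pgl-2 are shared with fli-1 on the same strand and 109 bases of deps-1 with Y65B4BL.7 on the other strand, and reads there cannot be assigned with certainty. How reads common to related members were divided is not known, and no member had the same counts as another gene.

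Levels are given as CPM after TMM scaling, that is, as estimated counts scaled to a common effective library size, and levels of different genes are compared only after division by exon length. Per kb of exon, pgl-1 was the most abundant of the 10 mRNAs on average in each of the 4 groups. It reached 129 ± 4.37 CPM per kb in polysomal glh1 RNA, 117 ± 15.7 in polysomal wt RNA, 130 ± 3.46 in total glh1 RNA and 131 ± 25.1 in total wt RNA (SD, n = 3 each). At the other end of the order, meg-4 averaged 2.01 ± 0.31 CPM per kb in polysomal glh1 RNA and 1.95 ± 0.48 in polysomal wt RNA, while meg-2 was lowest in total RNA, at 2.23 ± 0.36 CPM per kb in glh1 and 3.52 ± 1.18 in wt.

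In total glh1 RNA the order per kb was pgl-1, pgl-3 (55), deps-1 (44.4), mip-1 (37.2), mip-2 (22.5), meg-1 (12.6), pgl-2 (12.2), meg-3 (6.49), meg-4 (4.21) and meg-2. Only meg-1 and pgl-2 overlapped as neighbours in that order. In total wt RNA deps-1 (69.2 CPM per kb) came before pgl-3 (56.0), and the neighbours from deps-1 down to pgl-2 all overlapped in their ranges, as did meg-4 and meg-2. In polysomal RNA pgl-3 was second in both genotypes, at 102 CPM per kb in glh1 and 84.5 in wt. Its range overlapped that of pgl-1 in glh1 and not in wt, and that of deps-1, the third, in wt and not in glh1. The neighbours mip-1 and mip-2, pgl-2 and meg-1, and the lowest 3 meg genes overlapped within both polysomal groups.

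**Figure D1:**
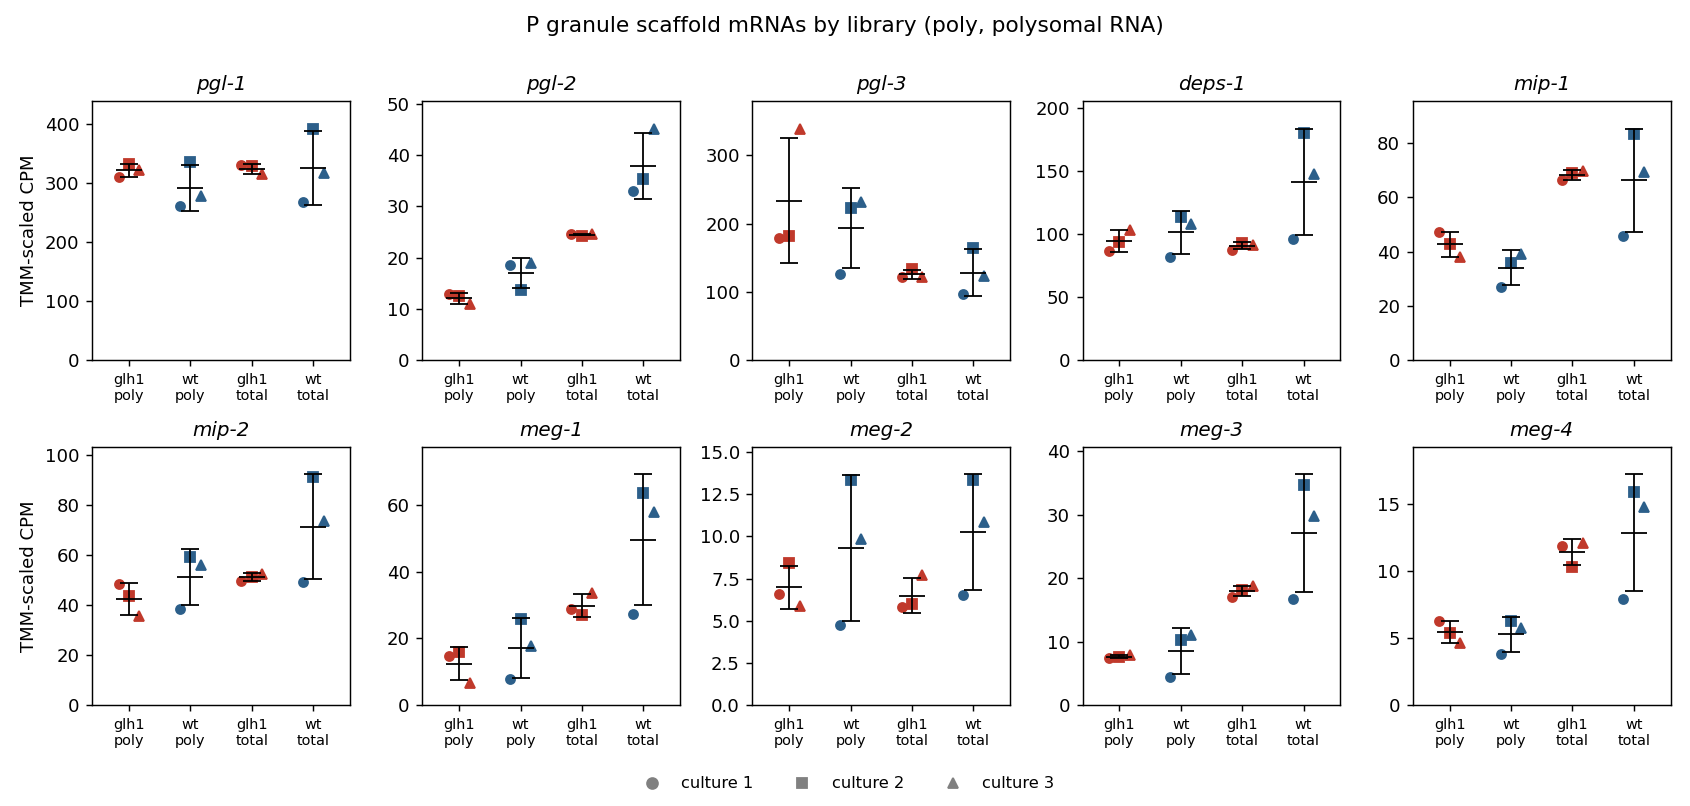
TMM-scaled CPM of each gene in every library, with 1 panel per gene, the y axis starting at 0, points for single cultures and bars for the mean and SD of 3 libraries. The 3 total RNA libraries of glh1 lie close together for most genes, and culture 1 of wt is the lowest of the wt total RNA libraries in all 10 panels.

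The replicates of the groups were unequally spread. The coefficient of variation of a member's CPM had a median over the 10 genes of 12.9% in polysomal glh1 RNA, 23.2% in polysomal wt RNA, 3.91% in total glh1 RNA and 29.6% in total wt RNA. Wt culture 1 gave the lowest wt value for 10 of 10 members in total RNA and for 9 of 10 in polysomal RNA, and so it did for 45.8% of all genes in total RNA and 36.9% in polysomal RNA. For 6 members in total RNA and 7 in polysomal RNA it was below all 3 glh1 libraries too, as it was for 41.3% of all genes in total RNA and 23.8% in polysomal RNA.

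The comparison of polysomal with total RNA asks which of these mRNAs were found on polysomes in greater or smaller proportion than the average mRNA. In glh1, pgl-3 rose in polysomal RNA, and pgl-2, mip-1, meg-1, meg-3 and meg-4 fell, so that 6 of 10 members passed the test (edgeR quasi-likelihood, adjusted p under 0.05). Over all genes 42.7% passed in glh1, 23.6% higher and 19.1% lower. In wt the same 5 genes fell, and pgl-1, pgl-3, deps-1, mip-2 and meg-2 did not pass. Over all genes 39.9% passed in wt, 20.1% higher and 19.8% lower. The median log2 fold change of the 10 members was -0.47 in glh1 and -0.72 in wt, against 0.13 and 0.06 over all genes tested. In glh1 the polysomal values did not overlap the total RNA values for 7 members, 1 above and 6 below, and this held for 63.6% of all genes, 34.3% above and 29.3% below. In wt they did not overlap for 5 members, all below, and this held for 49.2% of all genes, 25.0% above and 24.2% below. At an unadjusted p under 0.05 there were 6 members in each genotype, against 51.5% of all genes in glh1 and 48.9% in wt. Markers of germline mitosis and meiosis moved in the same direction: 6 of 10 fell and 1 rose in glh1, 7 of 10 fell in wt, and their summed level was 406 to 534 CPM in polysomal and 796 to 866 CPM in total glh1 RNA, and 495 to 556 CPM in polysomal and 855 to 1237 CPM in total wt RNA. Of 12 oocyte and maternal markers, 2 rose (perm-2 and perm-4) and 1 fell in glh1, and the same 2 rose and 4 fell in wt. The log2 fold change was negative for 9 of the 12 in glh1 (median -0.37) and for 10 in wt (median -0.51). The sums of these markers, which were higher in polysomal RNA in every culture, thus did not follow most of the list. Their summed level was 5205 to 8704 CPM in polysomal and 3552 to 3660 CPM in total glh1 RNA, and 4370 to 7987 CPM in polysomal and 3172 to 5872 CPM in total wt RNA. Of 10 sperm markers, 6 rose and 1 fell in glh1, and 7 rose in wt. The part of these cell types in the members' differences was not tested.

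The PGL genes behaved in 3 different ways. The mRNA of pgl-1, the founding PGL protein with an RGG-rich RNA-binding tail, measured 311, 333 and 322 CPM in polysomal glh1 RNA, against 331, 329 and 315 CPM in total glh1 RNA. In wt it measured 261, 336 and 279 CPM in polysomal RNA, against 268, 392.3 and 317 CPM in total RNA. These ranges overlapped in both genotypes, with log2 fold changes of -0.01 in glh1 (95% confidence interval -0.43 to 0.41) and -0.16 in wt (-0.58 to 0.26), signs that turned under upper-quartile scaling.

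The mRNA of pgl-3, the other PGL protein with RGG repeats, which can form condensates by itself in vitro, measured 179, 182 and 339 CPM in polysomal glh1 RNA and 122, 133 and 122 CPM in total glh1 RNA. In wt it measured 125, 223 and 231 CPM in polysomal RNA and 96.5, 164 and 123 CPM in total RNA. It was higher in the polysomal portion of all 6 cultures. The log2 fold change was 0.89 ± 0.30 (SE) in glh1, with an adjusted p = 0.0311, and 0.59 ± 0.30 in wt, with an adjusted p = 0.135 in edgeR. The glh1 call was lost without polysomal glh1 library 3, the highest value, where the log2 fold change was 0.53 and the edgeR adjusted p = 0.125. It was also lost without any 1 total glh1 library (adjusted p = 0.124, 0.0696 and 0.131 in edgeR), without polysomal wt library 2 (adjusted p = 0.0609) or without total wt library 3 (adjusted p = 0.0689). In wt pgl-3 passed without polysomal wt library 1 (log2 fold change 0.89, edgeR adjusted p = 0.0300) or without polysomal glh1 library 3 (0.60, adjusted p = 0.0484).

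The mRNA of pgl-2, a PGL relative that lacks the RGG repeats, was the one called with the smallest p in both genotypes. It measured 12.8, 12.5 and 10.8 CPM in polysomal glh1 RNA, against 24.6, 24.3 and 24.5 CPM in total glh1 RNA. In wt the values were 18.6, 13.6 and 18.9 CPM in polysomal RNA and 33.0, 35.4 and 45.1 CPM in total RNA. The polysomal values lay below the total RNA values with no overlap in either genotype, and the log2 fold changes were -1.02 ± 0.19 in glh1 (edgeR adjusted p = 0.00128) and -1.15 ± 0.19 in wt (edgeR adjusted p = 0.000605). These calls were kept without any 1 library.

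Of the proteins that gather the scaffold, deps-1, needed for P granule assembly and for germline RNA interference, measured 86.9, 93.4 and 104 CPM in polysomal glh1 RNA and 87.6, 93.1 and 91.3 CPM in total glh1 RNA. In wt it measured 82.0, 114 and 108 CPM in polysomal RNA and 96.2, 180 and 148 CPM in total RNA. The fractions overlapped in both genotypes, and the log2 fold changes were 0.06 in glh1 (95% interval -0.41 to 0.54) and -0.48 in wt (-0.955 to -0.004, edgeR adjusted p = 0.0993). With the culture as a block, which pairs the 2 portions of a lysate, deps-1 passed in wt (adjusted p = 0.0406). It also passed there without total wt library 1, the lowest value, with a log2 fold change of -0.70 (edgeR adjusted p = 0.0138), and with a stricter filter on low counts (adjusted p = 0.0406).

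The LOTUS-domain gene mip-1 measured 47.2, 42.9 and 38.1 CPM in polysomal glh1 RNA and 66.3, 68.9 and 69.6 CPM in total glh1 RNA. In wt its values were 26.96, 35.9 and 39.3 CPM in polysomal RNA and 45.7, 83.4 and 69.5 CPM in total RNA. It fell in both genotypes, by 0.68 ± 0.22 on the log2 scale in glh1 (edgeR adjusted p = 0.0244) and by 0.96 ± 0.22 in wt (edgeR adjusted p = 0.00442). The glh1 call did not hold without polysomal glh1 library 2 (adjusted p = 0.0514), total glh1 library 2 (adjusted p = 0.0652) or polysomal glh1 library 3 (adjusted p = 0.0537). Its relative mip-2 measured 48.5, 43.8 and 35.8 CPM in polysomal glh1 RNA and 49.67, 51.5 and 52.7 CPM in total glh1 RNA, which just did not overlap. In wt mip-2 had 38.5, 59.5 and 56.1 CPM in polysomal RNA and 49.5, 91.2 and 73.7 CPM in total RNA. Its log2 fold changes were -0.26 in glh1 (95% interval -0.77 to 0.24) and -0.48 in wt (-0.98 to 0.02, edgeR adjusted p = 0.118), and only the wt difference passed with the culture block (adjusted p = 0.0441). It passed too without total wt library 1, at -0.68 (edgeR adjusted p = 0.0252).

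Of the 10 members, meg-1, meg-3 and meg-4 had the largest falls in both genotypes. For meg-3, which encodes the RNA-binding protein that coats PGL condensates in the zygote, polysomal glh1 libraries held 7.44, 7.69 and 7.92 CPM and total glh1 libraries 17.1, 18.1 and 18.8 CPM. In wt they held 4.49, 10.3 and 11.1 CPM in polysomal RNA and 16.8, 34.7 and 29.8 CPM in total RNA. The log2 fold changes were -1.23 ± 0.32 in glh1 (edgeR adjusted p = 0.00910) and -1.65 ± 0.33 in wt (edgeR adjusted p = 0.00191). Its close relative meg-4, which acts redundantly with it, had 6.30, 5.39 and 4.63 CPM in polysomal glh1 RNA and 11.9, 10.3 and 12.1 CPM in total glh1 RNA. In wt meg-4 had 3.82, 6.30 and 5.74 CPM in polysomal RNA and 7.88, 15.9 and 14.8 CPM in total RNA. It fell by 1.07 ± 0.28 on the log2 scale in glh1 (edgeR adjusted p = 0.00914) and by 1.28 ± 0.28 in wt (edgeR adjusted p = 0.00364). These 4 calls of meg-3 and meg-4 were kept without any 1 library.

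The gene meg-1, whose protein is needed with MEG-2 for germ cell survival and fertility, measured 14.7, 15.95 and 6.82 CPM in polysomal glh1 RNA and 28.9, 27.2 and 33.6 CPM in total glh1 RNA. In wt it measured 8.04, 25.9 and 17.9 CPM in polysomal RNA and 27.2, 63.4 and 57.9 CPM in total RNA. The log2 fold changes were -1.25 ± 0.43 in glh1 (edgeR adjusted p = 0.0310) and -1.52 ± 0.43 in wt (edgeR adjusted p = 0.0136). The glh1 call was lost without polysomal glh1 library 3 (log2 fold change -0.96, adjusted p = 0.123), total glh1 library 2 (adjusted p = 0.0562) or total glh1 library 3 (adjusted p = 0.0649), and the wt call without total wt library 2 (adjusted p = 0.0507) or library 3 (adjusted p = 0.0571).

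Its neighbour meg-2 did not follow. It had 6.61, 8.41 and 5.91 CPM in polysomal glh1 RNA and 5.80, 6.01 and 7.69 CPM in total glh1 RNA, and in wt 4.74, 13.3 and 9.83 CPM in polysomal RNA against 6.56, 13.3 and 10.9 CPM in total RNA. The fractions overlapped in both genotypes, with log2 fold changes of 0.10 in glh1 (95% interval -0.66 to 0.86) and -0.14 in wt (-0.90 to 0.61), of which the second turned positive under upper-quartile scaling.

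**Figure D2:**
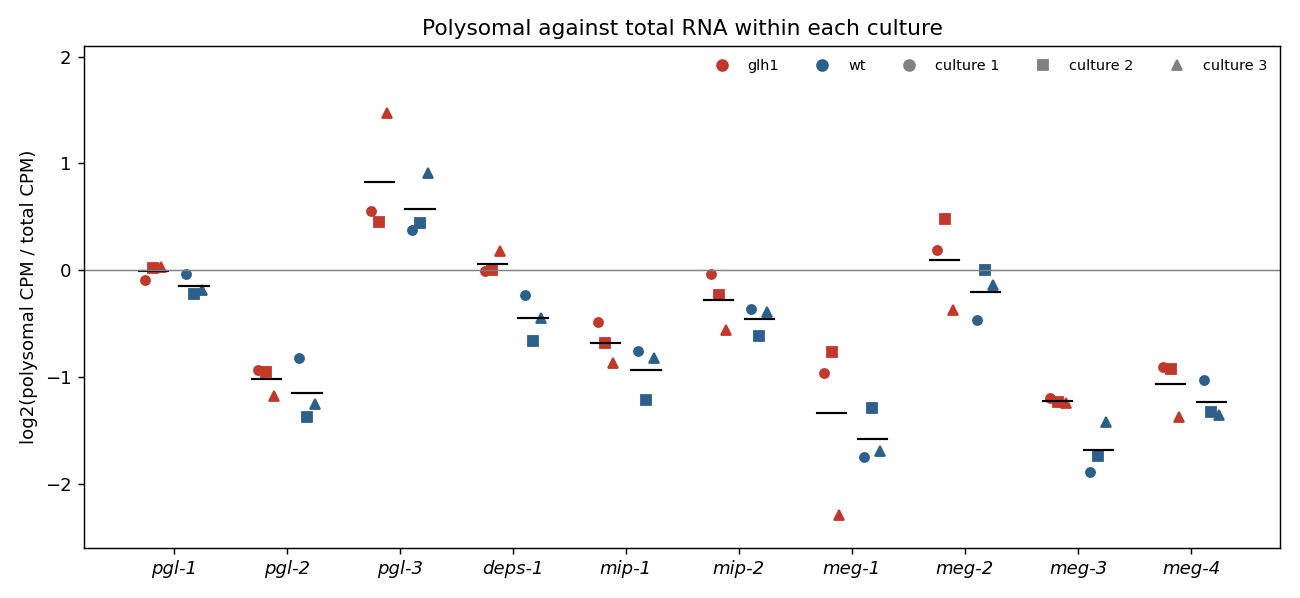
Log2 ratio of polysomal to total CPM (y axis, prior count of 2) for each gene (x axis), with 1 point per culture, glh1 left of wt, and lines for the means. Values for pgl-3 are above 0 in all 6 cultures, and those for pgl-2, mip-1, mip-2, meg-1, meg-3 and meg-4 are below 0 in all 6.

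When the ratios of 2 genes are compared within a culture, both come from the same 2 libraries, so the scaling of the libraries cancels, but for the prior count. The log2 polysomal-to-total ratio of meg-1 was below that of meg-2 in 6 of 6 cultures, by 1.41 ± 0.28 on average (SD). That of pgl-1 was below that of pgl-3 in 6 of 6, by 0.78 ± 0.41, and that of mip-1 below that of mip-2 in 6 of 6, by 0.44 ± 0.09. That of meg-3 was below that of meg-4 in 5 of 6 cultures, by 0.30 ± 0.34. These pairs were formed by family after the values had been seen, so the differences are a description with no test. As a share of pgl-1 per kb, pgl-3 came to 62.9, 59.5 and 114.7% in polysomal glh1 RNA, 52.4, 72.4 and 90.6% in polysomal wt RNA, 40.3, 44.2 and 42.2% in total glh1 RNA and 39.2, 45.7 and 42.3% in total wt RNA.

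By family, the PGL mRNAs made up 67.1 to 74.5% of the 10 in polysomal glh1 RNA, 65.7 to 67.9% in polysomal wt RNA, 58.9 to 61.3% in total glh1 RNA and 52.1 to 58.8% in total wt RNA, by CPM per kb. The MEG mRNAs made up 2.50 to 4.47% in polysomal glh1 RNA, 3.24 to 5.97% in polysomal wt RNA, 7.19 to 8.61% in total glh1 RNA and 8.03 to 11.4% in total wt RNA. The MEG share was thus lower in polysomal than in total RNA with no overlap in either genotype.

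**Figure D3:**
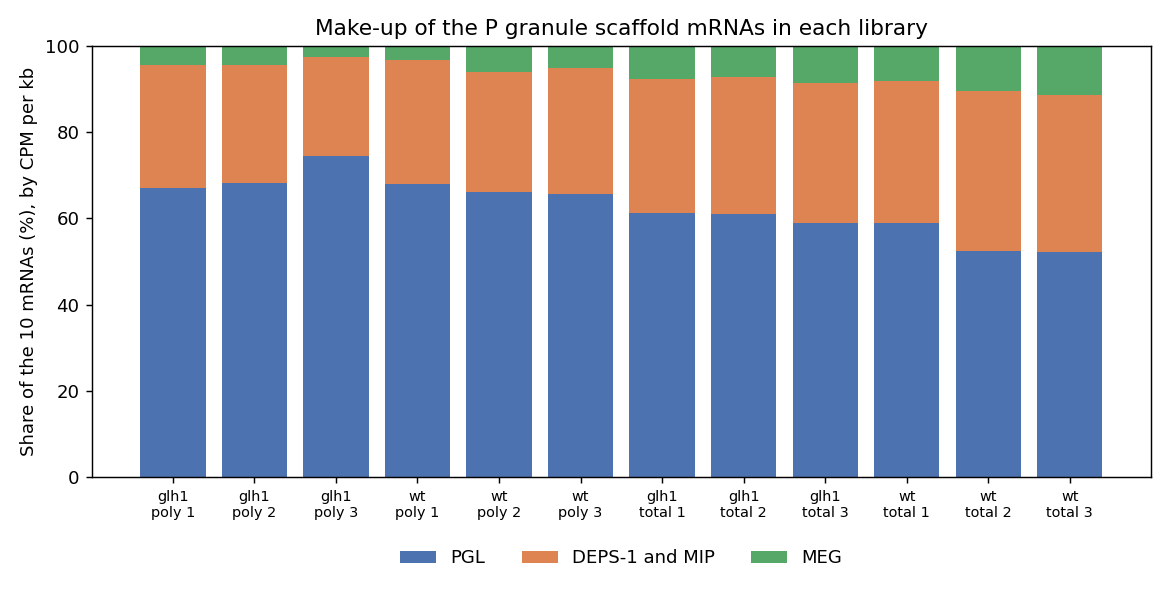
Share of each family in the summed CPM per kb of the 10 mRNAs (y axis, percent) in every library (x axis). In the polysomal libraries PGL mRNAs hold 65.7% or more and MEG mRNAs 5.97% or less, whereas in total RNA they hold 52.1 to 61.3% and 7.19 to 11.4%.

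Exon length moved with the fraction. Over all genes, the median log2 fold change of polysomal against total RNA was 0.64 in glh1 and 0.61 in wt for genes with exons under 1000 bases, and -0.37 in glh1 and -0.45 in wt for those of 2000 to 3000 bases. Genes of 1800 to 3000 exon bases, the class that holds all members, had medians of -0.29 in glh1 and -0.38 in wt, beside -0.47 and -0.72 for the members. With a trend on exon length removed from each library, 2 of the 6 glh1 calls remained, those of pgl-3 (higher) and pgl-2 (lower), where 38.8% of all genes were called, 20.5% higher and 18.3% lower. The log2 fold changes of the 4 others in glh1 became -0.46 for mip-1 (edgeR adjusted p = 0.117), -0.92 for meg-1 (adjusted p = 0.0779), -0.76 for meg-3 (adjusted p = 0.0908) and -0.63 for meg-4 (adjusted p = 0.0779). In wt, 5 members were called, 1 higher and 4 lower, beside 34.0% of all genes, 17.1% higher and 16.9% lower. There meg-1 lost its call at -1.06 (adjusted p = 0.0502) and pgl-3 gained one (log2 fold change 1.02, edgeR adjusted p = 0.0461). The 2285 X-linked genes tested, among them the 4 meg genes, had medians of 0.30 in glh1 and 0.23 in wt.

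The genotype comparison in total RNA asks whether the amount of these mRNAs differed with the label. None of the 10 members passed in edgeR, where 0.944% of all genes did. DESeq2 called 1 member, pgl-2, where it called 867 of all genes against 156 in edgeR. Limma on the rlog values called 0 members and 125 of all genes. At an unadjusted p under 0.05 there were 2 members, pgl-2 and deps-1, against 17.8% of all genes. The median log2 fold change of the members was -0.53, against -0.07 over all genes. The values for pgl-2 were 24.6, 24.3 and 24.5 CPM in glh1 and 33.0, 35.4 and 45.1 CPM in wt, a log2 fold change of -0.63 (95% interval -1.03 to -0.23, edgeR adjusted p = 0.124). For deps-1 the values of 87.6, 93.1 and 91.3 CPM in glh1 lay below the 96.2, 180 and 148 CPM of wt (log2 fold change -0.64, interval -1.12 to -0.16, edgeR adjusted p = 0.172). Of the 10 members these 2 had groups that did not overlap, both lower in glh1. Over all genes the groups did not overlap for 33.7%, 16.6% higher and 17.1% lower.

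The MEG genes and mip-2 had log2 fold changes of -0.73 (meg-1), -0.66 (meg-2), -0.59 (meg-3, edgeR adjusted p = 0.353), -0.17 (meg-4) and -0.48 (mip-2), with intervals that included 0. For pgl-1 the interval ran from -0.42 to 0.41, for pgl-3 from -0.68 to 0.63 and for mip-1 from -0.42 to 0.51. Without both libraries of wt culture 1, 3 members were lower in glh1 in edgeR: deps-1 (-0.74, adjusted p = 0.0183), mip-2 (-0.57, adjusted p = 0.0439) and meg-3 (-0.73, adjusted p = 0.0190). Many more genes were called without that culture, 9.41% of all tested, 5.45% higher and 3.96% lower. Without total wt library 1 alone, deps-1 passed (adjusted p = 0.0423), and without polysomal glh1 library 3, pgl-2 passed (adjusted p = 0.0330). The summed germline markers given above were also lower in total glh1 RNA than in wt cultures 2 and 3, and summed oocyte markers ran from 3552 to 3660 CPM in glh1 and from 3172 to 5872 CPM in wt. By single gene, 8 of 10 germline mitosis and meiosis markers (median log2 fold change -0.27) and 12 of 12 oocyte markers (median -0.42) were negative. Markers of somatic tissues were set beside them. Summed epidermis markers were 500.5 to 562 CPM in glh1 and 705 to 1128 CPM in wt, and summed muscle markers 2206 to 2327 CPM in glh1 and 2397 to 3370 CPM in wt, both lower in glh1 with no overlap. Summed neuron markers were higher with no overlap, at 360 to 384 CPM in glh1 and 300 to 339 CPM in wt. Single markers within these lists were mixed. The log2 fold change was negative for 3 of 5 epidermis markers (median -0.10) and positive for 2. It was negative for 4 of 5 muscle markers (median -0.23) and positive for 4 of 5 neuron markers (median 0.27). Intestine markers, at 16751 to 18877 CPM in glh1 and 14348 to 26853 CPM in wt, and sperm markers, at 338 to 353 CPM in glh1 and 347 to 447 CPM in wt, overlapped. Of all these markers 1 was called, lin-41 of the oocyte list, lower in glh1. The part of these markers in the genotype differences was not tested.

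In polysomal RNA no member differed between the genotypes in edgeR, where 1.06% of all genes passed, and neither DESeq2 nor limma called one. At an unadjusted p under 0.05 there was 1 member, pgl-2, against 15.7% of all genes. Its 12.8, 12.5 and 10.8 CPM in glh1 lay below the 18.6, 13.6 and 18.9 CPM in wt, with no overlap (log2 fold change -0.50, interval -0.90 to -0.09, edgeR adjusted p = 0.223). Of the 10 members it was the one with no overlap, where 17.6% of all genes had none, 9.48% higher and 8.08% lower. The members' median was -0.13, against -0.01 over all genes. The intervals of the other members included 0 and reached from -1.37 (meg-1) to 0.92 (pgl-3).

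**Figure D4:**
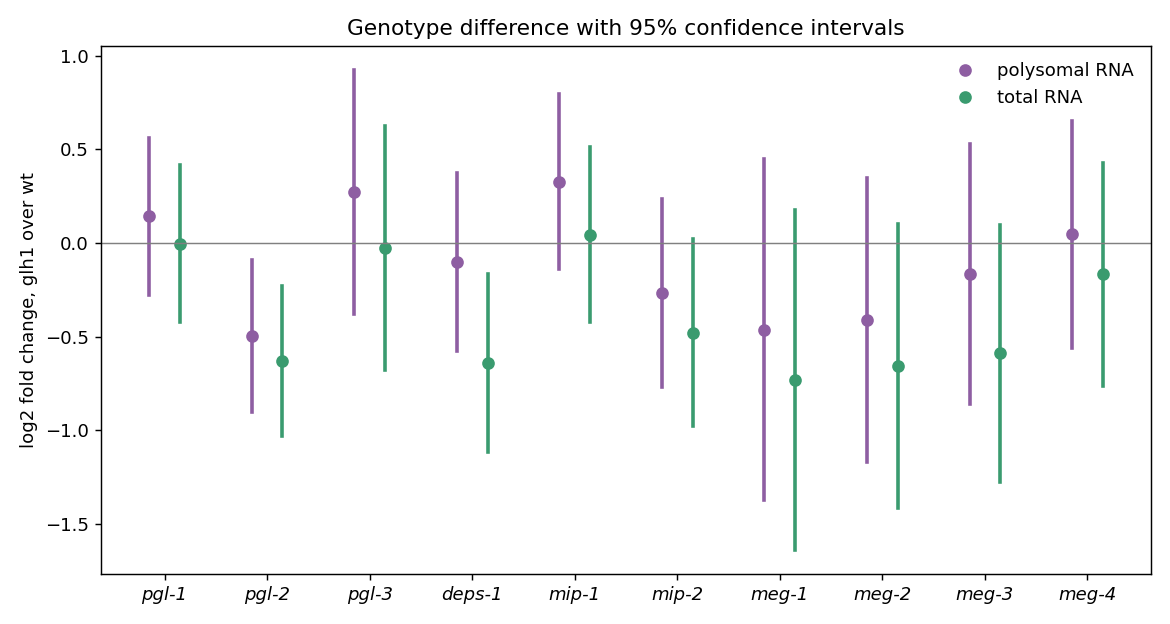
Log2 fold change of glh1 over wt (y axis) for each gene (x axis) in polysomal and total RNA, with bars for the 95% confidence interval of the edgeR model. The intervals exclude 0 for pgl-2 in both fractions and for deps-1 in total RNA, and none of these differences passed after adjustment over all genes.

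The interaction asks whether the polysomal-to-total difference itself differed between glh1 and wt. No member passed in edgeR, none had an unadjusted p under 0.05, and DESeq2 and limma called none. Over all genes 0.00% passed, 2.97% had an unadjusted p under 0.05, and DESeq2 called 3 genes. The interaction was positive for 10 of 10 members, with a median of 0.26 against 0.07 over all genes. It was also positive for 8 of 10 germline mitosis and meiosis markers (median 0.255) and 11 of 12 oocyte markers (median 0.120). Of 10 sperm markers 2 were positive (median -0.305). With upper-quartile scaling the median interaction over all genes was -0.036. The share of all genes with a positive interaction was not counted, and all these genes were measured in the same libraries. Without polysomal wt library 1 alone, the interaction turned negative for pgl-1 (-0.073), pgl-3 (-0.074), mip-1 (-0.014) and mip-2 (-0.115). In that fit those of meg-1 (-0.247), meg-2 (-0.233), meg-3 (-0.043) and meg-4 (-0.133) were negative too, and those of pgl-2 and deps-1 stayed positive. Without both libraries of wt culture 1, only that of meg-2 was negative (-0.024). The members' interactions, all except that of deps-1, turned negative without 1 or another single library. The largest was that of deps-1, at 0.54 (95% interval -0.13 to 1.21, edgeR unadjusted p = 0.105, adjusted p = 1.00). Its per-culture log2 ratios were -0.01, 0.00 and 0.18 in glh1 and -0.23, -0.66 and -0.45 in wt, which did not overlap. For meg-3 the ratios of -1.19, -1.23 and -1.24 in glh1 were also all above the -1.89, -1.75 and -1.42 of wt, and its interaction was 0.43 (-0.55 to 1.40). The other 8 members overlapped. Over all genes the per-culture ratios did not overlap for 10.9%, 6.57% higher in glh1 and 4.34% lower. For pgl-3, which passed in glh1 and not in wt, the interaction was 0.30 (-0.62 to 1.22, edgeR adjusted p = 1.00).

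Other germ granule genes were taken from a list by role, with 61 of 63 measured. In polysomal against total RNA, 5 rose and 24 fell in glh1, and 0 rose and 33 fell in wt, beside 23.6% of all genes higher and 19.1% lower in glh1, and 20.1% higher and 19.8% lower in wt. The list's median was -0.53 in glh1 and -0.70 in wt, beside the scaffold members' own medians of -0.47 and -0.72. The factors of the Z, Mutator, SIMR and E compartments, which amplify small RNAs beside the P granule, had 15 of 19 lower in glh1 and 16 of 19 in wt. In the whole list of 61, the smallest adjusted p included those of 2 compartment factors in both genotypes. These were the RNA-directed RNA polymerase gene rrf-1 (-2.11 in glh1 and -2.20 in wt) and the nuclease gene rde-8 (-1.69 in glh1 and -1.81 in wt). The others in glh1 were the helicase gene znfx-1 (-2.47), a compartment factor, and gld-3 (-1.61), a partner of the GLD-2 poly(A) polymerase. In wt they were gld-2 (-1.97) and mut-7 (-1.60), which encodes a Mutator exonuclease. Both gld-2 and gld-3 were listed among the RNA-binding and mRNP partners. Of the DEAD-box helicases 2 of 11 rose and 3 fell in glh1, and 0 rose and 3 fell in wt. The 2 that rose in glh1 were glh-1 (0.98, adjusted p = 0.00885) and its relative vbh-1. Germ granule Argonautes had 2 of 7 higher and 1 lower in glh1, and 0 higher and 3 lower in wt. RNA-binding and mRNP partners had 1 of 14 higher and 4 lower in glh1, and 0 higher and 6 lower in wt. Polarity and disassembly factors had 1 of 9 lower in glh1 and 4 lower in wt. The client mRNA nos-2, which MEG-3 brings into granules, stood at -0.64 in glh1 without passing (edgeR adjusted p = 0.0701) and fell by 0.94 in wt (adjusted p = 0.0146). Between genotypes 1 of 61 was lower in total RNA of glh1, gld-2 (-0.89, adjusted p = 0.0273), where 0.430% of all genes were lower, and 1 was higher in polysomal RNA, glh-1 (1.62, adjusted p = 0.0116), where 0.545% of all genes were higher. None of the 61 passed in the interaction, where 0.00% of all genes did. The list's median was -0.43 between genotypes in total RNA, -0.09 in polysomal RNA and 0.305 in the interaction. The scaffold members' own medians there were -0.53, -0.13 and 0.26. In the interaction, 19 of 19 compartment factors and 14 of 14 RNA-binding and mRNP partners were positive. So were 8 of 11 helicases, 5 of 7 Argonautes and 8 of 9 polarity and disassembly factors. The share of positive interactions over all genes was not counted.

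The members did not vary as 1 block. After the mean of each fraction was taken out, log2 CPM over the 12 libraries correlated most between the neighbours meg-1 and meg-2 (Pearson r = 0.936), mip-2 and meg-1 (r = 0.929), mip-2 and meg-2 (r = 0.912) and meg-2 and meg-3 (r = 0.909). The lowest values were those of pgl-2 with pgl-1 (r = -0.355) and with pgl-3 (r = -0.313). The pair meg-1 and meg-2 thus had the highest correlation within fractions and the most unequal polysomal-to-total ratios of the 4 family pairs. Among 5143 other named genes of at least 10 CPM, those most like each member were cacn-1 for pgl-1 (r = 0.914), oxa-1 for pgl-2 (0.955), irg-3 for pgl-3 (0.984), szy-4 for deps-1 (0.980), prg-1, the piRNA Argonaute gene, for mip-1 (0.964) and mcm-3, a replication licensing helicase gene, for mip-2 (0.987). For the MEG genes they were oma-2, an oocyte maturation factor, for meg-1 (0.974), dna-2 for meg-2 (0.961), acly-2 for meg-3 (0.981) and ent-1 for meg-4 (0.938). The 12 points share cultures, library depth and the libraries that stood apart, and the values describe these libraries only.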

How the data were processed

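Polyadenylated RNA was sequenced for 75 cycles with a stranded kit, per the labels' protocols. The authors deposited estimated counts per gene and, for 12709 genes, rlog values, which are on a log2 scale. Per the submitters' processing notes, the tools were DESeq2 1.24.0, RSEM 1.3.0, STAR 2.6.1b, Trimmomatic 0.36 and R 3.6.1, on WBcel235. The count table's own name points to kallisto instead, so the counting tool is not known here, nor is its use of strand. Of the values per library, 3.79 to 4.80% were not whole to within 0.000001.

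Counts were rounded and fitted in edgeR 4.0.16 (R 4.3.3) over all genes that passed filterByExpr, with TMM scaling and 1 robust quasi-likelihood model of 4 groups of 3 libraries. P-values were adjusted by Benjamini-Hochberg over all genes in each of 5 contrasts, with calls at 0.05. Log2 CPM used a prior count of 2. Symbols came from the reference table of gene names, and 87 IDs were not in the annotation. The 10 genes, the lists and the tests were chosen with earlier results of these data known. Other genes named were the most alike by correlation and up to 4 called granule genes a contrast, by adjusted p, with further list members named by role. The symbols of 2 listed granule genes, wago-3 and mut-8, matched no ID. Replicates are separate cultures, per the labels, and no 2 libraries agreed within counting noise (chi-square per degree of freedom of 23.1 or more).

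Total and polysomal libraries of 1 culture number share a lysate, per the labels' protocols, so the fractions are paired by culture. The main model had no culture block. Its p-values, SEs and intervals for the fraction contrasts and the interaction thus do not use this pairing. Deviations from group means correlated at 0.0989, -0.163 and -0.206 within glh1 cultures and at 0.756, 0.440 and 0.303 within wt cultures. Alternatives were DESeq2 1.42.0, limma 3.58.1 on the rlog values, other scalings and filters, the groups compared alone, a block, rRNA genes removed and libraries left out. The block was the culture for the fraction contrasts and the interaction. For the genotype contrasts it was the replicate number (the replicate block), which matches glh1 and wt cultures by number only. Removal of an exon length trend, and of glh1 culture 3 from the pair differences, was added after the data were seen. Figures used matplotlib 3.10.9.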

Additional observations from a re-analysis of the deposited data

How the results depend on the processing

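Of the fold changes of single members, those that turned sign under another setting were not called in either. In total RNA, glh1 against wt, pgl-1 became 0.016 with DESeq2 size factors, 0.165 with upper-quartile scaling, 0.077 unfiltered, 0.020 with a strict filter, 0.069 with the groups alone, 0.012 with the replicate block, 0.017 in DESeq2, 0.023 in limma, 0.082 without rRNA genes and 0.110 without the length trend. There pgl-3 became 0.152 with upper-quartile scaling, 0.060 unfiltered, 0.003 with a strict filter, 0.053 with the groups alone, 0.010 with the replicate block, 0.017 in limma, 0.063 without rRNA genes and 0.077 without the length trend, and meg-4 became 0.019 with upper-quartile scaling. Without wt culture 1, mip-1 became -0.047 in total RNA, pgl-3 -0.016 and meg-4 -0.213 in polysomal RNA (meg-4 was -0.010 unfiltered), deps-1 -0.022 for the fractions in glh1, meg-2 0.038 for those in wt, and the interaction of meg-2 -0.024. For polysomal against total RNA in glh1, pgl-1 became 0.140 with upper-quartile scaling and 0.409 without the length trend, mip-2 0.087 without the length trend, meg-2 -0.019 without rRNA genes, and deps-1 -0.024 unfiltered, -0.024 with the groups alone and -0.061 without rRNA genes. In wt, pgl-1 became 0.108 with upper-quartile scaling and 0.310 without the length trend, and meg-2 0.131 and 0.436.

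With 1 library left out, these results turned sign within the ranges given. In total RNA, pgl-1 ran from -0.128 to 0.151, pgl-3 from -0.194 to 0.197, mip-1 from -0.165 to 0.244 and meg-4 from -0.425 to 0.035. In polysomal RNA, pgl-1 ran from -0.001 to 0.230, pgl-3 from -0.096 to 0.425, meg-3 from -0.546 to 0.060 and meg-4 from -0.216 to 0.156. Between fractions, deps-1 ran from -0.043 to 0.083 and meg-2 from -0.060 to 0.209 in glh1, and meg-2 from -0.457 to 0.248 in wt. The interaction ran from -0.073 to 0.272 for pgl-1, -0.117 to 0.226 for pgl-2, -0.074 to 0.467 for pgl-3, -0.014 to 0.494 for mip-1, -0.115 to 0.421 for mip-2, -0.247 to 0.563 for meg-1, -0.233 to 0.486 for meg-2, -0.043 to 0.679 for meg-3 and -0.133 to 0.474 for meg-4. That of deps-1 stayed positive.

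Members called in total RNA between genotypes numbered 0, but 1 with the groups alone (pgl-2), 1 in DESeq2, 3 without wt culture 1, and 0 to 1 with 1 library left out. In polysomal RNA and for the interaction, 0 were called under each alternative run. Between fractions, 6 members were called in glh1, 2 without the length trend and 3 to 6 with 1 library left out, and 5 in wt, 4 to 7 with 1 left out. Over all genes, the 7064 calls in glh1 became 6410 without the length trend and 4859 to 7398 with 1 library left out. The 6593 calls in wt became 4401 to 8355 with 1 left out. The glh1 call of pgl-3 was also lost unfiltered (adjusted p = 0.0507), with the groups alone (0.0657), in limma (0.0539) and without rRNA genes (0.0524), and pgl-3 passed in wt with upper-quartile scaling (0.0260). With the culture block 6 were called in glh1 and 7 in wt, where it added deps-1 and mip-2 and changed no other call. Over all genes, the 156 calls in total RNA ranged from 30 to 1563 and the 175 in polysomal RNA from 3 to 1456. Upper-quartile scaling moved the median of all genes to 0.28 in glh1 and 0.32 in wt between fractions. The order of levels was the same with the longest transcript in place of all exons. The causes were not tested.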
